A study of Mus musculus with 15 samples.

Results

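The genes of 10 Jumonji (JmjC) histone demethylases were examined for trimethylation of lysine 4 on histone H3 (H3K4me3), a mark of promoters that are active or poised for activity. They were Kdm2a, Kdm2b, Kdm4a, Kdm4b, Kdm4c, Kdm5a, Kdm5b, Kdm5c, Kdm6a and Kdm6b, a list chosen by name from the 21770 protein-coding genes of the GENCODE M39 annotation. A peak was assigned to a gene when it overlapped 2000 bp either side of any annotated transcript start of that gene in GRCm39. The data were ChIP–seq peak lists from differentiated mBA cells, brown preadipocytes that the study derived from brown adipose tissue and immortalized with SV40 large T antigen, and that the sample labels call primary. There were 3 conditions with 4 ChIP samples and 1 input sample each. WT cells were wild type and untreated, WT + 2HG cells were wild type and received a cell-permeable 2-hydroxyglutarate dissolved in DMSO, and CLPP-KO cells were untreated knockouts for CLPP, the proteolytic subunit of a mitochondrial protease. All cells were cultured in high-glucose DMEM that lacked pyruvate. Uridine was added for the CLPP-KO cells, so that genotype and uridine cannot be told apart. By the study's methods the 4 samples of a condition are biological replicates, which it defines as independent cultures. The mBA cells of each genotype were derived from pooled animals, with both sexes used, and cultures of a genotype thus share that origin.

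JmjC demethylases remove methyl groups from histone lysines in a reaction that needs iron, oxygen and 2-oxoglutarate. 2-Hydroxyglutarate resembles 2-oxoglutarate and can inhibit these enzymes. The enzymes differ in the lysine they act on: KDM5A, KDM5B and KDM5C remove H3K4 methylation, the mark measured here, whereas KDM4 enzymes act on H3K9 and H3K36, KDM6 enzymes on H3K27, and KDM2A and KDM2B mainly on H3K36. H3K4me3 on the genes that encode them describes the state of their promoters, and neither the amount nor the activity of the enzymes was measured here.

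The authors combined the p-values of the 4 ChIP samples of a condition at peak calling, so there is 1 list per condition, and no value below has a replicate error. The lists held 12342 (WT), 14059 (WT + 2HG) and 15118 (CLPP-KO) peaks with a median width of 825.0, 885.0 and 868.0 bp, and they hold no read counts. A nominal sequencing depth is stated for the experiment, but the depth reached by each sample cannot be read from the lists. Because depth moves both the number and the width of peaks, each value of a demethylase gene is set beside the same value over all protein-coding genes. Of 6 brown adipocyte markers, 1, 2 and 3 had a promoter peak in these lists. Ucp1, Ppargc1a and Dio2 had none in any list, Prdm16 had one in every list, Cidea in WT + 2HG and CLPP-KO, and Ebf2 in CLPP-KO. Of 7 general adipocyte markers, 3, 5 and 5 had one, Pparg, Cebpa and Cebpb in every list and Plin1 and Lpl in the lists other than WT, while Fabp4 and Adipoq had none. Macrophage markers had no promoter peak (0 of 3), endothelial markers 1 of 3 in every list (Kdr), neuron markers 1 of 3 in every list (Syt1), and skeletal muscle markers 0, 0 and 2 of 3 (Myod1 and Pax7 in CLPP-KO). The part of these marker differences in the values below was not tested. Clpp itself had a promoter peak of 661, 664 and 629 bp in WT, WT + 2HG and CLPP-KO, and a promoter peak does not check a deletion elsewhere in the gene.

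All 10 demethylase genes carried a promoter peak in every list. Where 3 values follow each other here, they are in the order WT, WT + 2HG and CLPP-KO, and paired ratios to WT are in the order WT + 2HG and CLPP-KO. In such bulk data, marked chromatin in fewer cells and less of it per cell cannot be told apart. Among all protein-coding genes the shares were 51.3, 56.4 and 58.2% in WT, WT + 2HG and CLPP-KO. The 10 genes held 15 promoter peaks in each list, which together covered 18902, 20897 and 22799 bp. Promoter coverage, the summed width of the promoter peaks of a gene, had a median of 1578.5, 1667.5 and 1608.5 bp over the 10 genes. Over the 11021 protein-coding genes marked in all 3 lists, it was 990.0, 1142.0 and 1148.0 bp. Within WT the coverage ran from 635 bp at Kdm4c to 4427 bp at Kdm2b, so the family spanned narrow and broad promoters. A promoter peak of at least 2000 bp, a width found at 3.95% of marked coding genes in WT, was present at 2 of the demethylase genes (Kdm2a and Kdm6b). For WT + 2HG the genes were Kdm6a and Kdm6b, beside 6.07% of coding genes. For CLPP-KO they were Kdm2a, Kdm6a and Kdm6b, beside 5.99%.

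**Figure D1:**
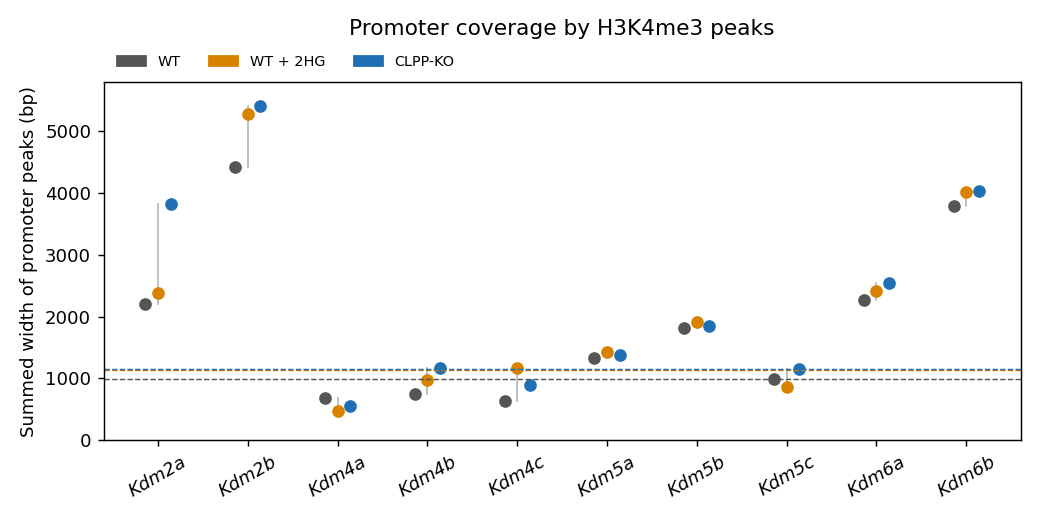
Summed width in bp of the promoter peaks of each demethylase gene in the 3 lists, with dashed lines at the median over protein-coding genes marked in every list. Kdm2b, Kdm6b, Kdm6a and Kdm2a lie far above the dashed lines in every list and Kdm4a lies below them, with 677, 468 and 559 bp.

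Each peak was also ranked by the area under its significance curve, as a percentile of all peaks in its own list (100 for the largest area), and a gene was given the percentile of its strongest promoter peak. In the order WT, WT + 2HG and CLPP-KO, the median percentile of the 10 genes was 87.4, 85.3 and 84.8, against 59.8, 64.8 and 67.0 over the protein-coding genes marked in all lists. The genes above the median of their list numbered 8, 9 and 9 of 10, beside 60.6, 62.3 and 64.2% of marked coding genes. At or above the 90th percentile stood 5, 3 and 4 of the genes, beside 12.7, 13.1 and 13.5% of coding genes. Kdm5b was the highest in every list (99.3, 99.0 and 99.5) and Kdm4a the lowest (32.4, 22.9 and 29.3). A longer list with more weak peaks places a given peak at a higher percentile by construction, so the background is given beside each difference. The median difference from WT over coding genes was 3.69 points for WT + 2HG and 5.30 points for CLPP-KO. For the 10 demethylase genes it was −0.55 and 0.34 points. Several of them had little room to rise, with Kdm2a at 98.4, Kdm5b at 99.3, Kdm6a at 97.1 and Kdm6b at 97.6 in WT. Coding genes had a lower median in WT, so these median differences did not have the same room.

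**Figure D2:**
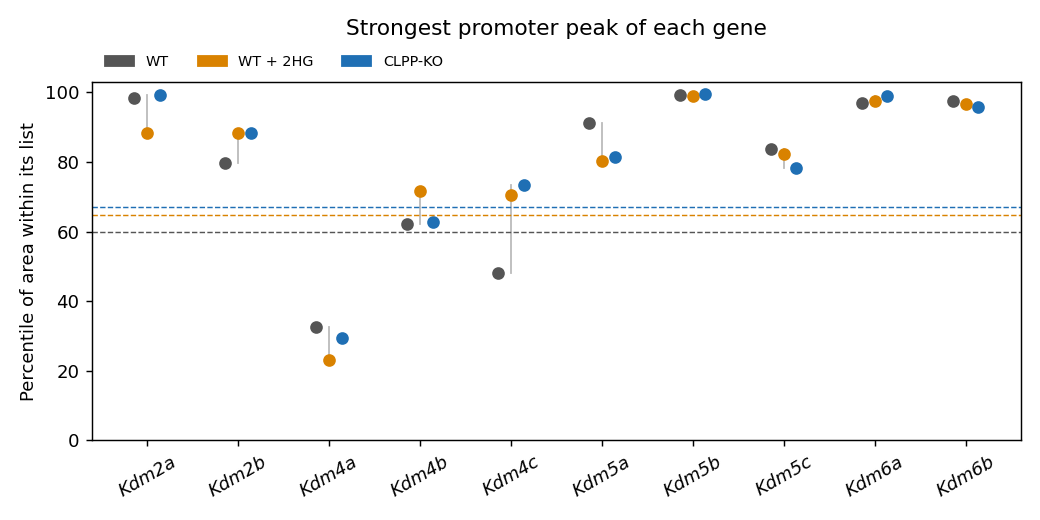
Percentile of the area of the strongest promoter peak of each gene within its own list, with dashed lines at the median over protein-coding genes marked in every list. Kdm4c moves from 48.1 in WT to 70.5 and 73.5, Kdm5a from 91.1 to 80.4 and 81.4, and Kdm5b stays at or above 99.0.

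Setting each list beside WT shows where the family differed between conditions. The comparison of WT + 2HG with WT covered 11057 coding genes marked in both lists. Promoter coverage was at least 25% wider than that of WT at Kdm4b and Kdm4c, 2 of the 10 genes, where 30.2% of coding genes were that much wider. It was at least 20% narrower than that of WT at 1 gene, Kdm4a, where 4.54% of coding genes were that much narrower. The percentile was at least 5 points higher at 3 genes (Kdm2b, Kdm4b and Kdm4c, 45.8% of coding genes). Kdm2a, Kdm5b, Kdm6a and Kdm6b stood too high in WT for a rise of 5 points, which limits the comparison with that share. The percentile was at least 5 points lower at 3 (Kdm2a, Kdm4a and Kdm5a, 18.7%). For Kdm2a this sets a part beside the whole. In WT + 2HG the stretch of its single WT peak was listed as 2 peaks, and only the stronger was ranked. Ranked by summit p in place of area, 26.3% of coding genes were at least 5 points lower and 50.9% at least 5 points higher. Other demethylase genes were then lower, Kdm6a (96.0 in WT and 77.7 in WT + 2HG) and Kdm6b (82.6 and 59.9), and none of the 3 named by area was. Kdm2a then stood higher than in WT (97.1 and 99.6), Kdm4a at 31.3 and 27.8, and Kdm5a at 95.6 and 94.5. Kdm4b and Kdm4c were at least 5 points higher on both rankings, and Kdm2b by area alone. By summit p a gene was given the highest percentile among its promoter peaks. At Kdm2b and Kdm6b that peak in WT was not the one in WT + 2HG, so their values by summit p do not follow a single peak. Kdm2a had more promoter peaks than in WT (7.09% of coding genes) and Kdm6a fewer (7.05%). The median width ratio to WT was 1.06 for the 10 genes and 1.11 for coding genes.

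The comparison of CLPP-KO with WT covered 11084 coding genes and rests on the WT list too, whose properties thus enter both comparisons. Kdm2a, Kdm4b and Kdm4c were at least 25% wider than in WT (3 of 10 genes, 30.0% of coding genes), and 0 were at least 20% narrower (4.34%). The call of Kdm2a needs a weak peak inside the gene far from the 5′ end: its main peak alone was 1.24 times as wide as in WT, and without weak peaks, in lists of equal size or with a summit p of at most 1e-05, 2 genes were called, Kdm4b and Kdm4c. Kdm2b and Kdm4c stood at least 5 points higher (2 genes, 51.0% of coding genes) and Kdm5a and Kdm5c at least 5 points lower (2 genes, 14.5%). The limit on a rise given for WT + 2HG holds here too. Ranked by summit p, the genes at least 5 points higher were Kdm4b and Kdm4c (55.6% of coding genes). Kdm6a and Kdm6b joined Kdm5a and Kdm5c among the lower ones (22.2%). For Kdm2b the peak ranked by summit p again differed from that in WT. Kdm2a had more promoter peaks (7.38%) and Kdm6a fewer (6.94%). The median width ratio was 1.14 for the 10 genes and 1.10 for coding genes. Only at Kdm2a did a promoter peak of WT + 2HG or CLPP-KO overlap no WT peak, a feature of 9.72% of the coding genes marked in all lists. The counts are of 0 to 3 genes, and no test of them was made.

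**Figure D3:**
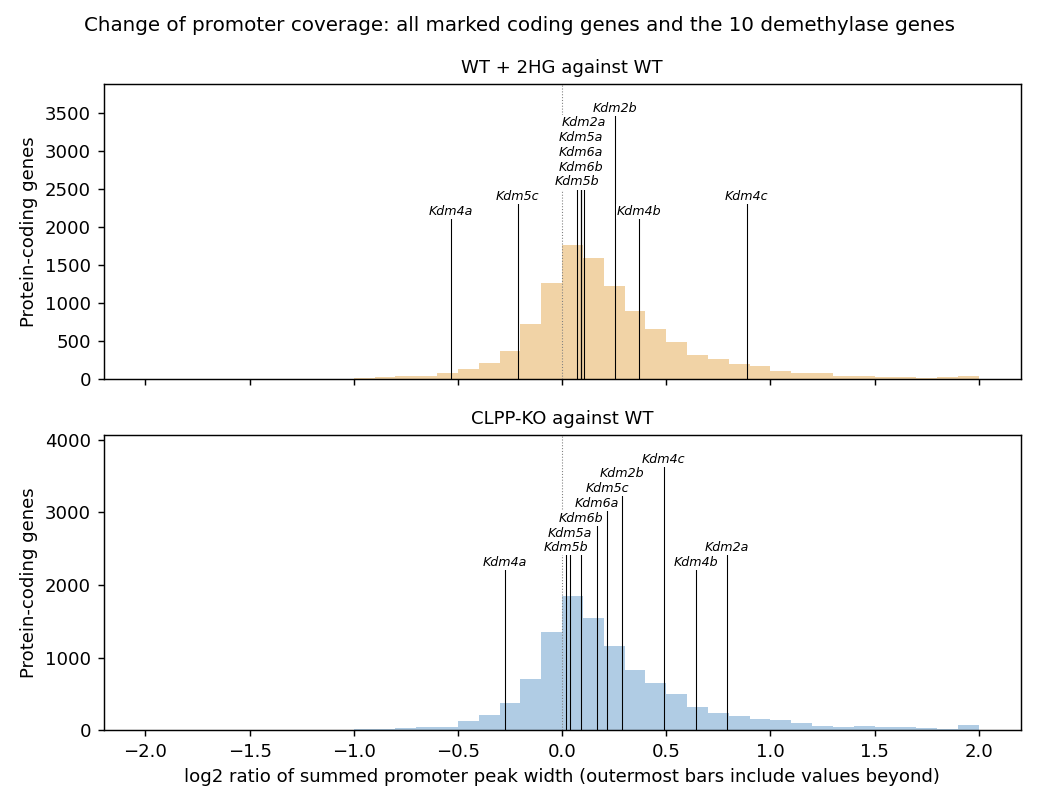
Histograms of the log2 ratio of promoter coverage to WT over protein-coding genes marked in both lists (number of genes on the vertical axis), for WT + 2HG above and CLPP-KO below, with a line at each demethylase gene. Among the demethylase genes, Kdm4c (1.85 times WT) is the widest and Kdm4a (0.69 times) the narrowest against WT in WT + 2HG. Kdm2a (1.73 times) and Kdm4b (1.56 times) are the widest of them in CLPP-KO. Coding genes lie beyond these values on both sides.

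The position of the peaks against the canonical transcript start differed from gene to gene. That start lay inside a promoter peak at 5, 6 and 7 of the 10 genes, beside 56.1, 71.8 and 70.9% of marked coding genes. Kdm4c in both lists other than WT, and Kdm4b in CLPP-KO, made up the difference, and at Kdm4a, Kdm5c and Kdm6b the canonical start lay in no peak of any list.

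**Figure D4:**
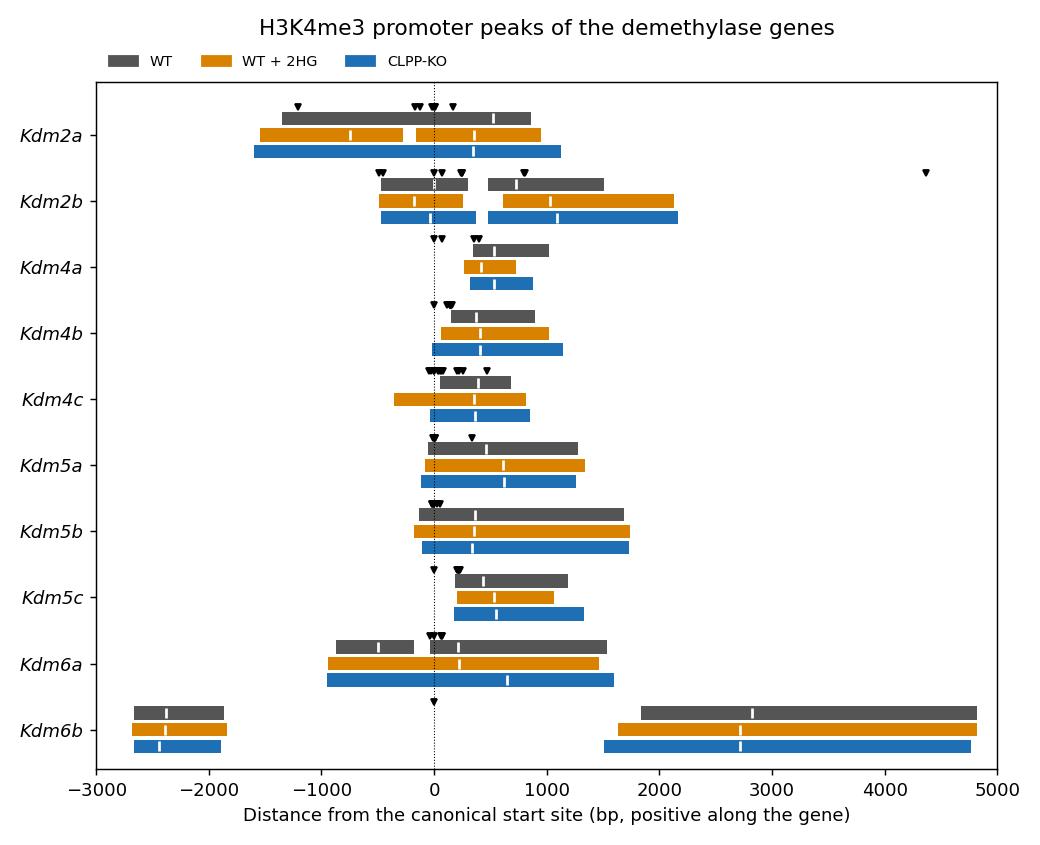
Promoter peaks in the 3 lists (bars) by distance in bp from the canonical start of each gene, positive along the direction of transcription, with white ticks at peak summits and triangles at annotated starts; peaks of Kdm2a and Kdm2b farther along the gene are not drawn. Kdm5b has nearly the same peak in every list, the WT peak pair of Kdm6a is a single peak in the other lists, and the peaks of Kdm6b flank its start.

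Among the enzymes that act on H3K4 itself, Kdm5b carried one of the strongest promoter peaks of the whole data set and differed little between the lists. KDM5B, also called JARID1B, is a demethylase of H3K4 known from stem cells and breast tumours. The gene (chr1:134487875-134563030, plus strand) had 1 promoter peak of 1820, 1912 and 1844 bp in WT, WT + 2HG and CLPP-KO. Its canonical start lay inside the peak, and the peak ran from −131 to 1688 bp of that start in WT. The width ratios to WT were 1.05 and 1.01.

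Kdm5a encodes a demethylase known as a binding partner of the retinoblastoma protein. Its promoter peak (gene chr6:120341068-120421535, plus strand) was 1337, 1423 and 1373 bp wide, with ratios to WT of 1.06 and 1.03. Although the width hardly differed, the percentile was 91.1, 80.4 and 81.4 in WT, WT + 2HG and CLPP-KO. The rank of Kdm5a among coding genes marked in all lists was 88.6, 71.8 and 71.4, lower in both lists other than WT also when ranked among the same genes in each list. By summit p it stood at 95.6, 94.5 and 85.3, close to WT in WT + 2HG. The same peak covered the start of Ccdc77, a neighbour on the opposite strand, so its signal cannot be assigned to Kdm5a alone.

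Kdm5c, an X-linked gene that escapes X inactivation and is mutated in a form of intellectual disability, had a peak of 997, 860 and 1158 bp (gene chrX:151016016-151062093, plus strand). The peak was 0.86 times as wide as in WT in WT + 2HG and 1.16 times in CLPP-KO, so the 2 lists lay on opposite sides of WT. The percentile was 83.8, 82.4 and 78.3. In every list the peak began downstream of the canonical start, at 188, 203 and 177 bp, and covered 7, 6 and 7 of the 10 annotated starts.

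Kdm2a and Kdm2b encode demethylases of H3K36 whose CXXC zinc finger binds unmethylated CpG dinucleotides. KDM2B also brings a variant Polycomb complex to CpG islands. Both genes had several promoter peaks or a peak that was divided in a list. At Kdm2a (chr19:4364447-4448313, minus strand) coverage was 2208, 2377 and 3821 bp. WT had 1 peak, at chr19:4446249-4448456. In WT + 2HG the same stretch was listed as 2 peaks of 1109 and 1268 bp with a gap of 118 bp between them. In CLPP-KO it was 1 peak of 2734 bp, wider than in WT on both sides.

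The percentile of Kdm2a was 98.4, 88.3 and 99.4 in the 3 lists. The value in WT + 2HG belongs to the stronger of the 2 divided peaks. It describes a part of the stretch, whereas the values in WT and CLPP-KO describe the whole. The summit −log10 p of the 2 divided peaks was 30.3 and 20.7. That of the undivided peak was 19.2 in WT and 30.5 in CLPP-KO. These values are not scaled between lists, and for the strongest peak by area they were above WT in both other lists at every demethylase gene. The gap lay just upstream of the canonical start, and 1 annotated start, that of Kdm2a-216 and Kdm2a-220, fell inside it. The part of the gap without annotated exon, 108 bases, held 23 CG dinucleotides, or 21.3 per 100 bp. It is printed to show the sequence that WT + 2HG leaves out of the peak, read from GRCm39 along the strand of the gene and with CG dinucleotides in capitals, as are all sequences here.
Kdm2a, chr19:4447279-4447386 (minus strand): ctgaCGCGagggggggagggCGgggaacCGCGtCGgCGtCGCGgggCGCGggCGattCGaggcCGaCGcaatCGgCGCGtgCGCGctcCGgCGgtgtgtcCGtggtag

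The second CLPP-KO peak of Kdm2a was at chr19:4382746-4383832, 1087 bp wide and within the gene, in an intron and 115 bp from the nearest annotated start. The transcript Kdm2a-212, whose coding part is 876 bp against 3483 bp for the canonical transcript, starts close to it, at position 4384029. The peak was weak, with a percentile of 11.3 and a summit −log10 p of 3.7. It accounts for 1087 of the 3821 bp of coverage in CLPP-KO, and it was the reason Kdm2a had more peaks there. With 1.75 CpG per 100 bp it was the promoter peak of the family poorest in CpG, at the 0.7 percentile of CpG density among promoter peaks of coding genes in that list. The sequence around its summit, shown as a contrast to the CpG-rich gap, holds 3 CG dinucleotides in 250 bases.
Kdm2a, chr19:4383038-4383287 (minus strand): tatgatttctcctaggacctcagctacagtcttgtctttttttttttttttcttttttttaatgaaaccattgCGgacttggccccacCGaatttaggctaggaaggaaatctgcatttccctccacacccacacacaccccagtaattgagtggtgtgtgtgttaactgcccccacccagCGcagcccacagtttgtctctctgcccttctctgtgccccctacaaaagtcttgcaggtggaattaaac

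Kdm2b (chr5:123008720-123127886, minus strand) had the largest coverage of the family, with 4 promoter peaks in every list that summed to 4427, 5282 and 5408 bp, ratios to WT of 1.19 and 1.22. Its strongest peak by area in every list lay not at the canonical start but at an internal start 88983 bp downstream, that of transcript Kdm2b-201. The coding part of that transcript is 2328 bp, against 3927 bp for the canonical Kdm2b-202. A short form of KDM2B that lacks the JmjC domain is known, and whether it was made in these cells was not measured here. The internal peak was 1651, 1867 and 1590 bp wide, with a percentile of 79.6, 88.2 and 88.2. The peak over the canonical start, which also covered the start of A930024E05Rik, was 769, 747 and 846 bp wide and stood at 57.4, 47.2 and 49.5. Its summit −log10 p of 11.8, 12.6 and 14.5 was above that of the internal peak in WT (9.6) and below it in the other lists (18.2 and 18.6).

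The other peaks of Kdm2b were weaker in WT. The one about 1 kb downstream of the canonical start was 1027, 1516 and 1686 bp wide, with a percentile of 56.8, 54.2 and 75.4, and the one about 37 kb downstream stood at 33.8, 44.3 and 49.4. The internal peak was the most CpG-rich of all promoter peaks of the family in every list, with 11.39, 10.39 and 11.7 CpG per 100 bp. The 250 bases upstream of the internal start, shown because the Kdm2b peak of largest area covers them in every list, hold 37 CG dinucleotides.
Kdm2b, chr5:123038419-123038668 (minus strand): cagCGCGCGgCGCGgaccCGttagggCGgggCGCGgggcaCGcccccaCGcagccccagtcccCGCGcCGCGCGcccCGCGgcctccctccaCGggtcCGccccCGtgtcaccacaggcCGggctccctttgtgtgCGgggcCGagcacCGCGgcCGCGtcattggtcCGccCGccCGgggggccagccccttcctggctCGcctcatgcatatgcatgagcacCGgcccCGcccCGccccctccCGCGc

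**Figure D5:**
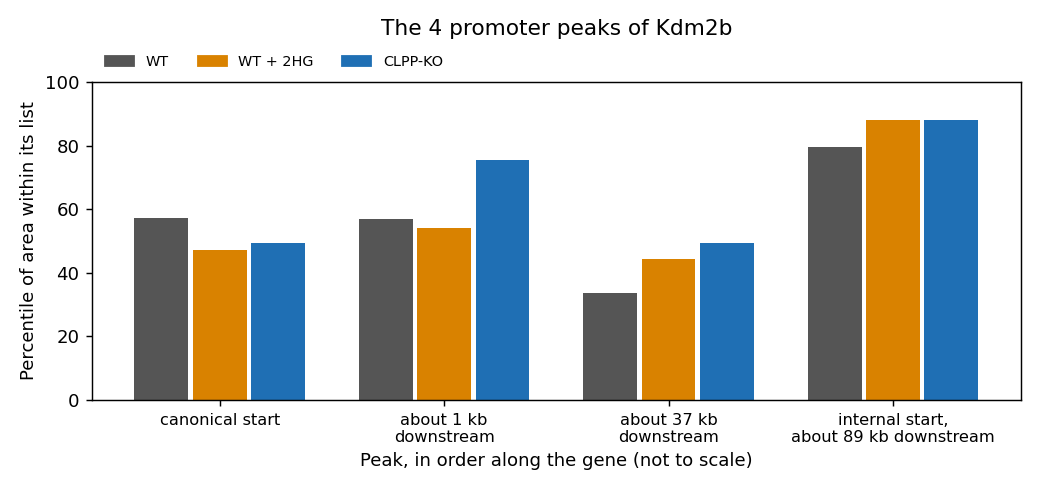
Percentile of the area of each of the 4 promoter peaks of Kdm2b within its list, in order along the gene. The peak at the internal start is the highest in every list (79.6, 88.2 and 88.2) and that at the canonical start is higher in WT (57.4) than in WT + 2HG (47.2) and CLPP-KO (49.5).

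The KDM4 genes, whose products remove methyl groups from H3K9 and H3K36, had the lowest promoter coverage in WT and, in WT + 2HG, the largest relative differences from it. Each had 1 promoter peak in every list. Kdm4c (chr4:74160734-74324757, plus strand), a gene amplified in some carcinomas, had a peak of 635, 1173 and 890 bp. The ratios to WT were 1.85 and 1.40. Its percentile was 48.1, 70.5 and 73.5, differences from WT of 22.3 and 25.4 points, and its rank among coding genes marked in all lists was 36.6, 57.8 and 59.5. The summit −log10 p was 9.8, 22.2 and 22.4. It is not scaled between lists, and for the strongest peak by area it was above WT in both other lists at every demethylase gene. As a percentile within its list it was 48.8, 83.6 and 77.8 at Kdm4c.

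In WT + 2HG the peak of Kdm4c differed from WT mainly at its upstream edge. It began at 49, −356 and −39 bp from the canonical start in WT, WT + 2HG and CLPP-KO. The canonical start was therefore outside the WT peak and inside the others, and 7, 14 and 13 of the 17 annotated starts lay in a peak. The wider peaks also covered the start of A230083N12Rik, a neighbouring gene, so their signal cannot be assigned to Kdm4c alone. The stretch below lies in the WT + 2HG peak and in neither of the other peaks. It overlaps 3 annotated exon entries and holds 16 CG dinucleotides in 250 bases.
Kdm4c, chr4:74169830-74170079 (plus strand): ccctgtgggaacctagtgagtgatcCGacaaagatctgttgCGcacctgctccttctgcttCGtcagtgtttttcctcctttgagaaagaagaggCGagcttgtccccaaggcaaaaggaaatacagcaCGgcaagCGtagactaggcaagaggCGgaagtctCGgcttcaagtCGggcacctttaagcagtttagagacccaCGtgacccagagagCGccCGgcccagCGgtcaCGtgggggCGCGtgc

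Kdm4b (chr17:56632913-56714338, plus strand), a gene known to respond to hypoxia and oestrogen, had a peak of 748, 966 and 1169 bp, ratios to WT of 1.29 and 1.56. The upstream edge was at 148, 57 and −20 bp from the canonical start, so that 4, 10 and 11 of 14 annotated starts lay in a peak. Its percentile was 62.3, 71.6 and 62.7. The rank among coding genes was 52.9, 59.3 and 43.8, whereas by summit p its percentile was 58.8, 75.7 and 86.6, so that in CLPP-KO Kdm4b was lower than in WT by rank of area and higher by summit p.

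Kdm4a (chr4:117994154-118037251, minus strand) was the exception among the KDM4 genes. Its peak was 677, 468 and 559 bp wide, ratios of 0.69 and 0.83, and its percentile was the lowest of the family in each list. Its rank among coding genes marked in all lists was 20.6, 5.0 and 6.8. The peak lay downstream of the canonical start in every list and covered 2 of 6 annotated starts. In WT + 2HG its downstream end stopped 293 bp short of the WT end, while its upstream end lay nearer to the canonical start, at 261 bp against 345 bp. The downstream stretch, the part of the WT peak that the WT + 2HG peak lacks, holds 9 CG dinucleotides.
Kdm4a, chr4:118036230-118036522 (minus strand): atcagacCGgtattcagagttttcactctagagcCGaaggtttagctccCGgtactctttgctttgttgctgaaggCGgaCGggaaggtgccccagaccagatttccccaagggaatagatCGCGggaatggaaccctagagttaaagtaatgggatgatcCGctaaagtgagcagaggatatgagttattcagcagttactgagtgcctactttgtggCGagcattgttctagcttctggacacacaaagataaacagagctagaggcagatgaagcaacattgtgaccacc

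The KDM6 genes encode H3K27 demethylases that oppose Polycomb, and both had promoter coverage above 2000 bp in every list. Kdm6a, also called Utx, is X-linked and escapes X inactivation (chrX:18028776-18146877, plus strand). It was covered over 2268, 2412 and 2547 bp, ratios to WT of 1.06 and 1.12, with a percentile of 97.1, 97.6 and 99.0 by area and of 96.0, 77.7 and 91.0 by summit p. WT had 2 peaks, of 695 and 1573 bp, with 146 bp between them, and WT + 2HG and CLPP-KO each had 1 peak over the whole stretch. The smaller WT peak, upstream of the gene, stood at the 52.1 percentile. The outer ends of the peaks hardly differed: the region began at −875, −944 and −950 bp from the canonical start and ended at 1538, 1467 and 1596 bp. Kdm6a thus had fewer peaks than in WT at nearly the same outer extent, and the sequence between the WT peaks, without its last 4 bases, holds 12 CG dinucleotides in 142 bases.
Kdm6a, chrX:18028634-18028775 (plus strand): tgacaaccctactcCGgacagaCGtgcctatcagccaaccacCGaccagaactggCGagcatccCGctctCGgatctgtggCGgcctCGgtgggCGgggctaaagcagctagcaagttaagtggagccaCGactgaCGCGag

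Kdm6b, also called Jmjd3, an inducible gene of inflammation and development (chr11:69289334-69304501, minus strand), was marked away from its annotated start. Its coverage was 3785, 4024 and 4030 bp, a ratio to WT of 1.06 in both lists. It came from 2 peaks that flanked the canonical start. The larger lay within the gene, with its summit in an intron, and was 2990, 3183 and 3258 bp wide with a percentile of 97.6, 96.8 and 95.8. By summit p the percentile of the gene was 82.6, 59.9 and 68.4. That value came from the larger peak in WT and CLPP-KO and from the smaller peak, upstream of the start, in WT + 2HG. The larger peak began 1832, 1633 and 1509 bp downstream of the canonical start. It also covered the starts of ENSMUSG00000130600, Gm72923 and Gm72933, so that it cannot be assigned to Kdm6b alone. The smaller peak, of 795, 841 and 772 bp, was 1867, 1843 and 1892 bp upstream and covered the starts of Gm51903 and Gm57330. Its percentile was 72.7, 46.3 and 46.8. Neither of the 2 annotated starts of Kdm6b lay in a peak of any list, and with a window of 1000 bp in place of 2000 bp the gene had no promoter peak. The 250 bases upstream of its canonical start lay in no peak and hold 3 CG dinucleotides.
Kdm6b, chr11:69304502-69304751 (minus strand): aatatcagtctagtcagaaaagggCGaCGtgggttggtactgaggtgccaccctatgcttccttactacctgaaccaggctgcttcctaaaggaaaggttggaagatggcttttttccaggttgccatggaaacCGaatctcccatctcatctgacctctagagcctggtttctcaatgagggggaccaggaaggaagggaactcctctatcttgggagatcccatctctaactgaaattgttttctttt

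CpG content, which the choice of genes did not use, varied widely within the family. The 15 promoter peaks in WT held 3.14 to 11.39 CpG per 100 bp with a median of 6.22, against a median of 7.41 over 11496 promoter peaks of coding genes. In WT + 2HG the values were 3.09 to 10.39 with a median of 6.86 against 7.29, and in CLPP-KO 1.75 to 11.7 with a median of 6.45 against 7.28. The peaks above the median of coding genes numbered 6, 7 and 5 of 15. For canonical starts the background was all coding genes, of which 8838 had no promoter peak in any list, and not promoter peaks. In the 500 bp around the canonical start, 8 of the 10 genes lay above the median of 4.8 CpG per 100 bp over all coding genes. The exceptions were Kdm4a with 4.2 and Kdm6b with 1.4, both with the canonical start outside every peak. Kdm5c, the remaining gene with that property, had 5.8, the next lowest value. Kdm4b and Kdm4c, whose canonical starts lay outside the peak in WT but not in every list, had 10.0 and 9.4.

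Related genes were described in the same way. Of 20 other genes with a JmjC domain, 17 had a promoter peak in WT and 18 in each of the other lists. Kdm5d and Uty, the Y-linked counterparts of Kdm5c and Kdm6a, had none in any list. The lists held 1, 2 and 16 peaks on the Y chromosome. The part of the sex make-up of the cultures in the values of the X-linked Kdm5c and Kdm6a was not tested. Hif1an, which encodes an asparagine hydroxylase that acts on hypoxia-inducible factor, had none in WT and peaks of 639 and 348 bp in WT + 2HG and CLPP-KO. The widest in WT were Jmjd1c with 2821 bp and Jarid2 with 2515 bp. The median width ratio to WT of the genes in both lists was 1.02 and 1.04. The flavin-dependent H3K4 demethylases Kdm1a and Kdm1b, which do not use 2-oxoglutarate, had a promoter peak in every list. So did all 13 genes of H3K4 methyltransferases and their subunits, with median ratios of 1.09 and 1.14 and the greatest WT widths at Setd1b (2873 bp) and Kmt2a (2601 bp).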

How the data were processed

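H3K4me3 ChIP–seq was performed in 12 samples, 4 per condition, with 1 input per condition. The authors trimmed reads with fastp 0.23.4, mapped them to GRCm39 with BWA-MEM 0.7.17 and called peaks with Genrich 0.6.1 on the 4 samples of a condition together. The deposited peaks carry a score that ends at 1000, an area under the significance curve, which is also a score here, and the −log10 p of its summit; the q field is −1 throughout. The smallest deposited area is 200.0 and the lists hold peaks on the X chromosome (276, 383 and 413), which differs from the stated call settings. None of these values is scaled between lists. Areas were therefore used as percentiles within a list and widths as deposited. The lists give no depth per sample.

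Starts came from GENCODE M39 on GRCm39, as did the printed sequences, none of which overlaps an annotated UTR. Peaks were matched to genes in Python 3.11.15 (numpy 2.4.6, pandas 2.3.3), and the matching was checked on simulated lists. On those lists the counts of peaks absent from WT were also checked against bedtools 2.31.1. No test was made, as there is 1 list per condition. The genes and lists were chosen with earlier results of these data known. All 10 genes are named, and of the related lists the genes without a promoter peak in some list and the 2 widest in WT. Of the sequences, those of Kdm2b, Kdm4c and Kdm4a follow a rule on coverage, and those of Kdm2a, Kdm6a and Kdm6b were chosen after their values were seen, as was Clpp. Alternatives changed the window, the starts, the thresholds, the ranking and the list sizes.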

Additional observations from a re-analysis of the deposited data

How the results depend on the processing

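Of the counts recomputed under another setting, 93 stayed within 1.5 times the reported count of genes and 20 did not. This tally compares numbers of genes only, so a count can stay while the genes called change. Shares in brackets are of coding genes under the same setting. With the stricter limits of 1.5 times the WT width and its inverse, 1 gene in place of 2 was wider in WT + 2HG (13.9%) and 0 in place of 1 narrower (1.28%). With widths divided by the median ratio of coding genes, 1 was wider (19.6%) and 2 were narrower (9.85%) in WT + 2HG. In CLPP-KO 1 in place of 0 was then narrower (9.21%). A difference of at least 10 points left 1 gene higher in WT + 2HG (32.0%), 1 higher in CLPP-KO (36.1%) and 0 lower in CLPP-KO (6.56%). With the 5′ end of the gene as its only start, Kdm4c had no promoter peak in any list (9 of 10 genes, beside 47.2, 52.0 and 53.7%). Under that setting 1 gene was higher in WT + 2HG (46.0%) and 1 in CLPP-KO (51.4%). It also left 0 with more peaks in CLPP-KO (4.99%) and 0 with a region absent from WT (6.48%). In CLPP-KO, 4 genes in place of 2 were lower with lists of equal size, where the share of coding genes was 34.0% in place of 14.5%. Ranks by summit p, which also changed the genes called in WT + 2HG, gave 4 (22.2%). Ranks among coding genes marked in every list, an alternative chosen after seeing the data, gave 4 (34.1%). The share of coding genes thus rose with the count. Lists of equal size left 0 genes with more peaks in CLPP-KO (2.59%) and 0 with a region absent from WT (3.90%), as the intronic Kdm2a peak was lost. Peaks with a summit p of at most 1e-05 also left 0 (5.21%) and 0 (6.60%), for the same reason. A window of 3000 bp gave 2 genes with more peaks in CLPP-KO (8.16%). With a window of 1000 bp, 9 of the 10 genes had a promoter peak in each list, all but Kdm6b (50.8, 55.9 and 57.6%). No paired analysis was possible because the 4 samples of a condition were pooled before deposit, and for the same reason no sample could be left out. Depth per sample, which the lists do not give, limits every comparison of widths and areas between lists.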
